A study of Rattus norvegicus with 12 samples.

Results

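Sncg, the gene of gamma-synuclein, was examined together with 9 genes of fat cells, Adipoq, Plin1, Lep, Cidec, Fabp4, Pparg, Retn, Cfd and Lipe, in RNA of the pubocaudalis, a muscle of the rat pelvic floor. The 10 genes were taken by symbol from a table of 30206 genes, and each symbol matched 1 row. Sncg was chosen on its counts in these same libraries, and the other 9 were chosen by name as fat cell genes. The fold changes of Sncg between the groups are therefore a description of why it stands here and carry no test of their own. A filter on low counts kept 14599 genes, among them 9 of the 10; Lep was left out by it and is given as counts.

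The rats were 3-month-old female Sprague-Dawley dams, and the dams of all 4 groups had a simulated birth injury (SBI), made by distending a balloon in the vagina late in gestation. Groups 1wk SBI and 3wk SBI had their pups taken away after delivery and did not lactate, and those of 1wk SBI + Lac and 3wk SBI + Lac nursed their pups. The muscle was taken 1 or 3 weeks after the injury. Each group had 6 rats in 3 libraries, each a pool of the RNA of 2 rats, so a spread between libraries is a spread between pools, and the series used here has no uninjured group.

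Gamma-synuclein is a small soluble protein of the synuclein family and is best known from sensory and motor neurons of the periphery and from white fat cells, where it is tied to triglyceride storage. A fat cell stores triglyceride in a single large droplet, releases it as fatty acid in fasting, and secretes hormones such as adiponectin and leptin. In muscle, fat cells lie between the fibers and along vessels and nerves, so their RNA in a piece of muscle depends on what was dissected as well as on the state of the cells. In bulk RNA, fewer fat cells and less RNA per fat cell cannot be told apart.

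The sequences before the transcription starts of Sncg and of 3 fat cell genes, Adipoq, Plin1 and Cidec (r of 0.37 to 0.85 with each other over the libraries), are shown so that Sncg can be set beside genes of the cell type it is known from. Each run holds the 250 bases upstream of the start, 5′ to 3′ on the strand of the gene, from RefSeq on build GRCr8; 8 of the 10 genes had an entry. Capitals mark TTGCNNAA, the core of the sites bound by C/EBP factors, which act in fat cell formation. The Sncg run lies at chr16:9711337-9711586, the Adipoq run at chr11:91240170-91240419, the Plin1 run at chr1:143086149-143086398 and the Cidec run at chr4:148137116-148137365, each on the minus strand.
Sncg: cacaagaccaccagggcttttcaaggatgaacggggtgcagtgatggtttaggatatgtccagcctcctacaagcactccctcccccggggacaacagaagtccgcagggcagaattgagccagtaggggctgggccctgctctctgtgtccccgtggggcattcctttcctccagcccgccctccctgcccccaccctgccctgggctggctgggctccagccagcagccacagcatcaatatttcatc
Adipoq: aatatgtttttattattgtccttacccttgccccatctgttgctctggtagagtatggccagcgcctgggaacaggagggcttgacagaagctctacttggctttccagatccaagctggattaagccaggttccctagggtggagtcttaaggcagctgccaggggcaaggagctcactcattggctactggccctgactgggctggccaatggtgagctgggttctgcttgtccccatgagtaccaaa
Plin1: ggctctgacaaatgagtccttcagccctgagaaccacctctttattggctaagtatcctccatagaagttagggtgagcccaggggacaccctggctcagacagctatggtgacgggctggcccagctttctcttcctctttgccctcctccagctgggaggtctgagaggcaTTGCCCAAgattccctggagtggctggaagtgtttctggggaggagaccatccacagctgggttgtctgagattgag
Cidec: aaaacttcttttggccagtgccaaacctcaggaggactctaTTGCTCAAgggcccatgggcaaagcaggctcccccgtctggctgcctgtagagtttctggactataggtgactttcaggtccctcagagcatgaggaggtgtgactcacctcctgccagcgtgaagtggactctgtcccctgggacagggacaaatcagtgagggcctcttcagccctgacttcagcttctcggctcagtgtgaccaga
The core was found, on either strand, before Plin1, Lep, Cidec and 1 of the 2 Pparg starts, at bases -77 to -70 for Plin1 and -209 to -202 for Cidec, and it occurs in 9.22% of the 33469 upstream runs of the table. The Sncg and Adipoq runs do not hold these letters. AGGTCA, a repeat unit of the sites of many nuclear receptors such as PPARγ, occurs in 14.1% of all runs and among the members before Retn. TGTTCT, a repeat unit of glucocorticoid receptor sites, occurs in 17.5% of all runs, and TATAAA in 12.9%; neither was found before a member. The Sncg run was 61.6% G and C, against a median of 51.2% over all runs, while Adipoq was at 53.2%. These are matches of letters and say nothing of binding.

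Total counts per library ran from 10082734 in 3wk SBI replicate 1 to 75634391 in 3wk SBI replicate 3, and 3wk SBI + Lac replicate 3 was also shallow with 10704307. Values are given as normalized CPM, counts brought to a common library size with TMM, which sets the bulk of genes equal between libraries, so that 1 count was worth between 0.0120 and 0.110 CPM. A count of 0 was read as allowing up to 3 counts, which is 0.322 CPM in 3wk SBI replicate 1 and 0.330 CPM in 3wk SBI + Lac replicate 3. Markers of the labelled tissue were abundant: Acta1, the skeletal muscle actin, averaged between 29259.5 and 63095 CPM in the 4 groups. A gene was called changed when its adjusted p, from a quasi-likelihood test of edgeR fitted to the 14599 genes, was under 0.05 and the absolute log2 fold change was over 1.

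Sncg separated the 4 groups almost without overlap, and the effect of lactation on it had opposite directions at the 2 time points. In the non-lactating libraries of 1 week Sncg stood at 7.37, 5.48 and 5.67 CPM, and in the lactating ones at 11.3, 11.3 and 16.0 CPM. At 3 weeks the non-lactating libraries held 26.8, 25.9 and 23.5 CPM, and the lactating ones 10.1, 10.1 and 6.92 CPM. At 1 week each lactating library was above each non-lactating one, and at 3 weeks each was below.

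The 1-week means were 6.17 ± 1.04 CPM without lactation and 12.9 ± 2.72 CPM with it (SD over 3 libraries). Those of 3 weeks were 25.4 ± 1.75 CPM without lactation and 9.05 ± 1.84 CPM with it. In descending order, 3wk SBI was followed by 1wk SBI + Lac, 3wk SBI + Lac and 1wk SBI. The last 2 overlapped, since 3wk SBI + Lac replicate 3 with 6.92 CPM was below 1wk SBI replicate 1 with 7.37 CPM. That lactating library had 63 Sncg counts, the fewest of the 12, and its 95% Poisson interval of 5.32 to 8.86 CPM, which covers counting error only, takes in the 1-week value.

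**Figure D1:**
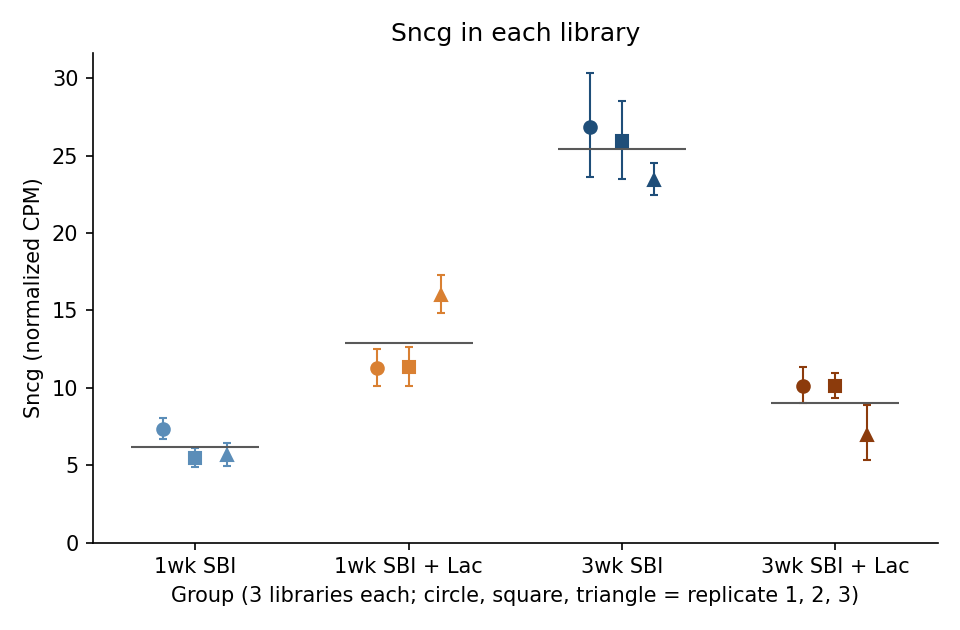
Sncg in normalized CPM (y axis, from 0) in the 12 libraries of the 4 groups (x axis). Points are libraries with 95% Poisson intervals of the count, and horizontal lines are group means. The 3wk SBI libraries stand highest, at 23.5 to 26.8 CPM, and the 1wk SBI libraries lowest, at 5.48 to 7.37 CPM, with 3wk SBI + Lac overlapping the latter.

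Lactating against non-lactating, the log2 fold change of Sncg was 1.06 (SE 0.17) at 1 week, 2.09-fold higher, and -1.45 (SE 0.18) at 3 weeks, 2.73-fold lower. Both were past the cutoffs, so 1 of 9 members tested was called at each time point, against 0.253% of all genes at 1 week and 0.74% at 3 weeks. The share of all genes whose groups did not overlap was 28.4% at 1 week, where Sncg was the 1 such member, and 22.3% at 3 weeks, where Sncg and Fabp4 were. The 1-week call was the weaker: the fold change fell to 0.87 without 1wk SBI + Lac replicate 3 and to 0.98 without 1wk SBI replicate 2, and Sncg was not called in either case, nor without 1wk SBI + Lac replicate 1 (1.15) nor with the replicate number as a block (1.07).

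The 3-week effect minus the 1-week effect was -2.51 (SE 0.25) for Sncg, and Sncg was the 1 gene of 14599, 0.00685%, past both cutoffs in this difference with edgeR. At an unadjusted p under 0.05 there were 645 genes, and DESeq2 called 11, Sncg among them. Sncg remained past the cutoffs in this difference without any 1 of the 12 libraries, which describes the counts it was chosen on. A pattern of libraries like that of Sncg, all lactating ones higher at 1 week and all lower at 3 weeks, was shown by 24 genes (0.164%), and the opposite one by 19 (0.13%).

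Over time, the non-lactating dams had 4.09-fold more Sncg at 3 weeks than at 1 week (log2 fold change 2.03, SE 0.18), a call that 1.46% of all genes shared. In the lactating dams the log2 fold change was -0.48 (SE 0.18) and was not called; here 0.774% of all genes were. Sncg libraries did not overlap in either comparison, as was so for 21.6% of all genes without lactation and 28.1% with it. The deposited 1-week values are whole counts and the 3-week values hold decimals. These 2 comparisons therefore mix time with any difference in the way of counting. The lactation effect at each time point is within 1 form of values. The difference of the 2 effects sets a 3-week effect in 1 form beside a 1-week effect in the other. Whether the time points were counted differently, and the part of this in the difference, was not tested.

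The fat cell genes showed no called differences. Of the 8 tested, 0 were called by edgeR in either lactation contrast, in their difference or over time. Their lowest adjusted p was 0.304 at 1 week and 0.217 at 3 weeks, and the number at an unadjusted p under 0.05 was 0 and 1, with 2 in the difference and, over time, 0 without and 3 with lactation. Their median log2 fold change was -0.17 at 1 week, with 2 of 8 above 0, and -0.03 at 3 weeks, with 4 of 8 above 0, beside medians over all genes of -0.004 and -0.02. DESeq2 called 0 of them as well. Over time without lactation, the groups of 2 of them did not overlap, beside 21.6% of all genes: Plin1 was higher in each library of 3 weeks (log2 fold change 1.21, SE 0.72, edgeR adjusted p = 0.36) and Cidec lower in each (-0.97, SE 0.75, adjusted p = 0.498).

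**Figure D2:**
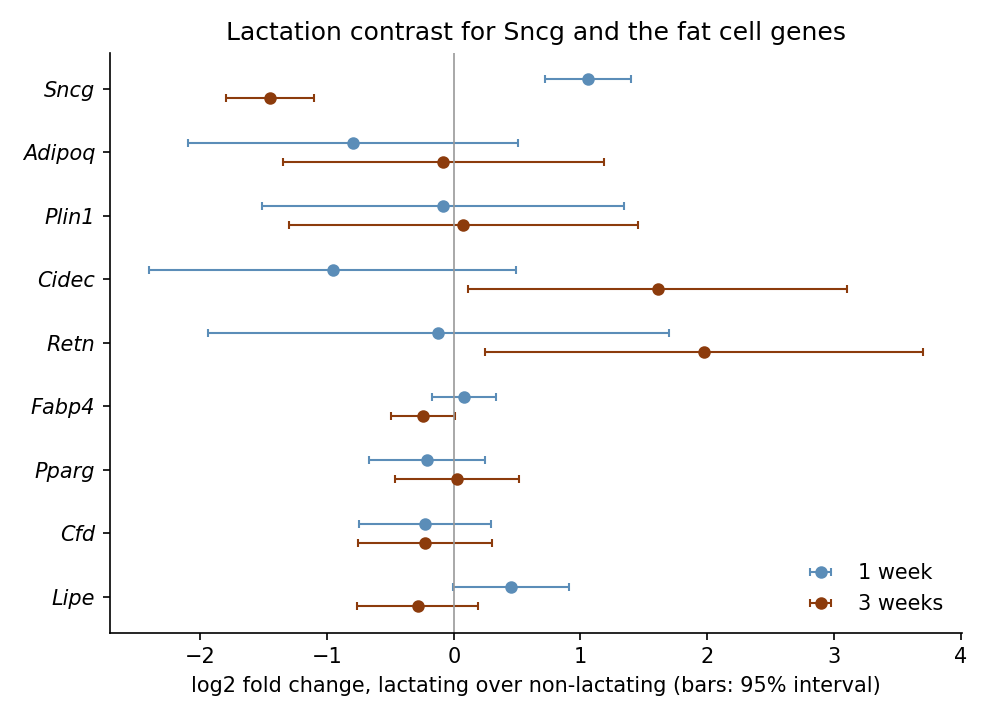
Log2 fold change, lactating over non-lactating (x axis), of Sncg and the 8 fat cell genes tested (y axis) at 1 week and 3 weeks. Points are edgeR estimates and bars are 95% intervals taken from the SE with a normal curve, which can be narrower than edgeR's test implies. Sncg lies at 1.06 and -1.45 with narrow bars on opposite sides of 0, while the bars of the fat cell genes cross 0, except those of Cidec and Retn at 3 weeks. For Cidec at 3 weeks the unadjusted p of edgeR's test was 0.0519.

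Among the secreted proteins, Adipoq, which encodes adiponectin and is made by fat cells nearly alone, was low and uneven. At 1 week it stood at 2.60, 2.07 and 3.47 CPM without lactation and at 0.885, 3.05 and 0.812 CPM with it. The 3-week values were 2.79, 7.62 and 3.56 CPM without lactation and 3.61, 7.71 and 0.879 CPM with it. The groups overlapped at both time points, and at 3 weeks the highest and the lowest of the 6 libraries were both lactating, 8.77-fold apart.

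Cfd, the gene of adipsin, a serine protease of the complement pathway, ranged from 28.3 to 40.7 CPM over the 6 libraries of 1 week and from 22.0 to 47.8 CPM over those of 3 weeks. Its log2 fold change was -0.23 at each time point (SE 0.26 and 0.27, adjusted p of edgeR's test 0.678 and 0.665). In each 3-week group the shallow library was the lowest for Cfd.

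Retn, the gene of resistin, and Lep, the gene of leptin, were near the limit of these libraries. At 1 week Retn had 15, 4 and 7 counts without lactation and 1, 11 and 2 counts with it. The 3-week libraries had 0, 3 and 22.2 counts without lactation and 17, 81.0 and 2 counts with it. Its fitted log2 fold change at 3 weeks was 1.98 (SE 0.88, edgeR adjusted p = 0.217), and leaving out 1 library moved it to between 1.15, without 3wk SBI + Lac replicate 2 with 1.32 CPM, and 2.74, without 3wk SBI replicate 3. Lep had 0 counts in 5 of 12 libraries and at most 16.0 counts, in 3wk SBI replicate 3 (0.192 CPM). Per library size it was highest in 3wk SBI replicate 2, where 9 counts gave 0.557 CPM.

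Of the droplet proteins, Plin1, the gene of perilipin, which coats the lipid droplet of fat cells, held 0.513, 0.371 and 0.539 CPM at 1 week without lactation and 0.197, 0.848 and 0.311 CPM with it. The 3-week values were 1.07, 1.61 and 0.720 CPM without lactation and 1.20, 1.89 and 0 CPM with it. The 0 was in 3wk SBI + Lac replicate 3, where up to 0.330 CPM would not have been seen. Its log2 fold changes were -0.08 (SE 0.73) and 0.08 (SE 0.70).

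Cidec, which makes small lipid droplets fuse into large ones, had 44, 35 and 34 counts at 1 week without lactation and 5, 21 and 9 with it. In the libraries of 3 weeks there were 0, 4 and 47 counts without lactation and 48.4, 80 and 1 with it. Like Sncg it had lactation effects of opposite sign, -0.96 (SE 0.74) at 1 week and 1.61 (SE 0.76) at 3 weeks on the log2 scale, but in the opposite order to Sncg, and neither was called (edgeR adjusted p = 0.501 and 0.241). The difference of 2.56 (SE 1.06) was not called either, with an adjusted p of 0.999. Single libraries moved these values: at 1 week to -1.84 without 1wk SBI + Lac replicate 2 and to -0.63 without replicate 1 of that group, and at 3 weeks to 2.84 without 3wk SBI replicate 3 and to 1.26 without 3wk SBI + Lac replicate 1.

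The other 3 measured members are expressed outside fat cells too. Fabp4, a fatty acid carrier also made by capillary endothelium and macrophages, was the steadiest, at 66.6 to 96.4 CPM in all 12 libraries. At 3 weeks it stood at 87.4, 86.1 and 96.4 CPM without lactation and at 72.7, 83.4 and 71.9 CPM with it. These groups did not overlap, but the log2 fold change was -0.24 (SE 0.13) and was not called, with an edgeR adjusted p of 0.297.

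Lipe, the hormone-sensitive lipase that splits diglyceride in fat cells and muscle fibers, ranged from 7.55 to 19.3 CPM at 1 week and from 9.61 to 16.2 CPM at 3 weeks. Its log2 fold changes, 0.45 (SE 0.23) and -0.29 (SE 0.24), had the signs of those of Sncg, with edgeR adjusted p values of 0.304 and 0.53, and their difference of -0.74 (SE 0.34) had one of 0.999. Without 1wk SBI + Lac replicate 2, the library with 19.3 CPM, the 1-week value was 0.13. Pparg, the transcription factor that drives fat cell formation, stayed between 1.77 and 3.19 CPM, with log2 fold changes of -0.21 (SE 0.23) and 0.03 (SE 0.25).

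**Figure D3:**
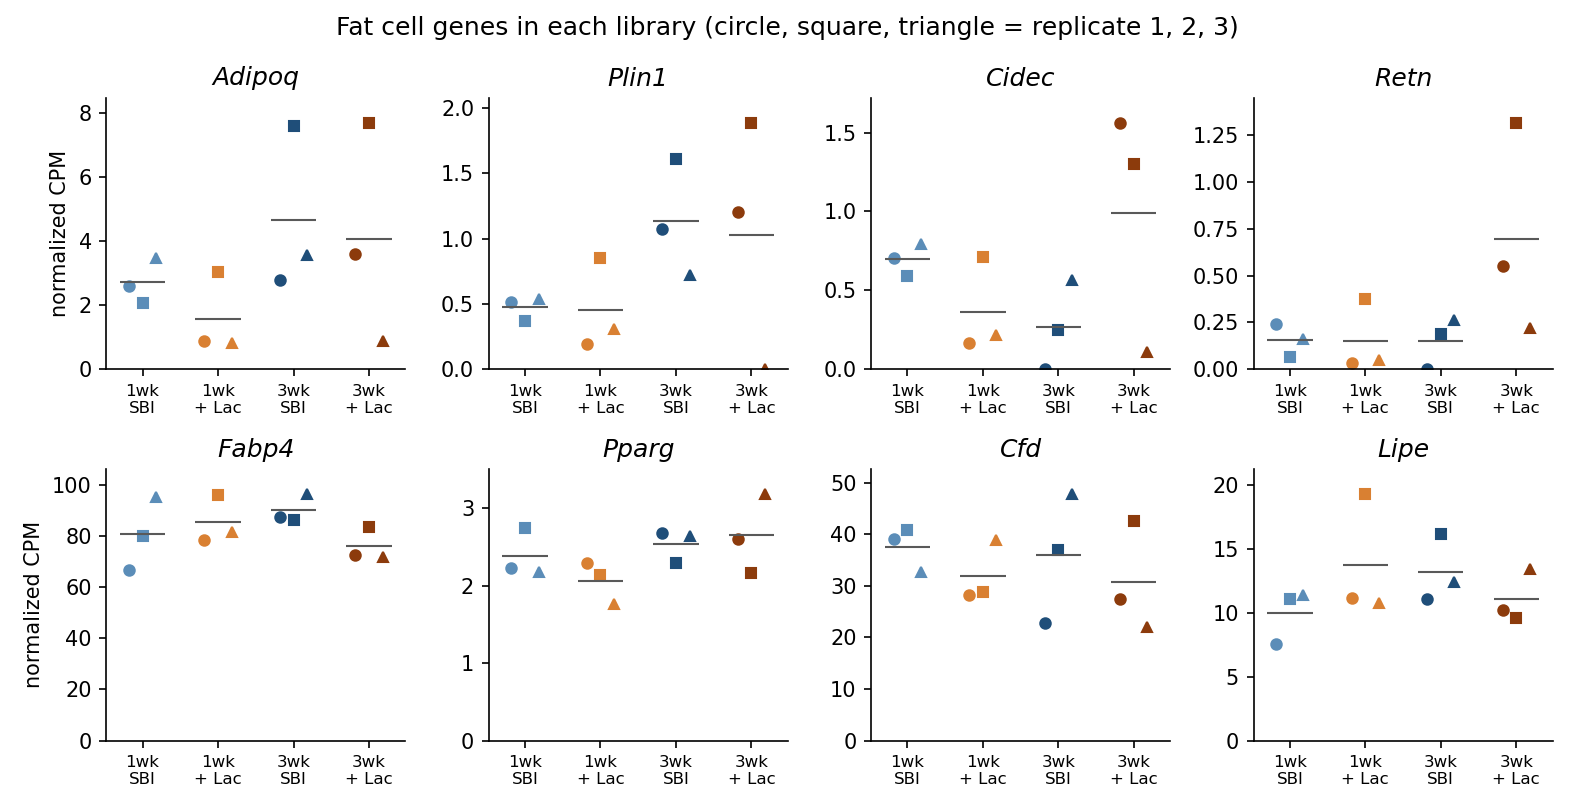
Normalized CPM (y axes, each from 0 and with its own range) of 8 fat cell genes in the 12 libraries by group (x axes). Points are libraries, with circle, square and triangle for replicates 1, 2 and 3, and lines are group means. Adipoq, Plin1, Cidec and Retn vary within groups, Adipoq from 0.879 to 7.71 CPM in 3wk SBI + Lac, while Fabp4 stays between 66.6 and 96.4 CPM.

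The share of the variation that lay between groups is given for Sncg as a description, since its counts in these groups are why it was chosen. Of the variation of its log2 CPM over the 12 libraries, 93.3% lay between the 4 group means, the 44th highest share of all 14599 genes, whose median was 46.8%. Among the fat cell genes the share ran from 13.5% for Cfd to 42.5% for Retn, each below that median. Adipoq had 34.1%, Plin1 15.6% and Cidec 30.2%.

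To ask whether Sncg followed the fat cell genes, a fat cell level was formed for each library as the mean of the log2 CPM of the 9 genes (prior count 2). At 1 week it was 1.06, 1.07 and 1.28 without lactation and 0.40, 1.46 and 0.63 with it. At 3 weeks it was 0.51, 1.78 and 1.59 without lactation and 1.51, 1.99 and 0.31 with it. In each group but 1wk SBI, 1 or 2 libraries were low, and the groups overlapped; 11.9% of its variation lay between groups. The 2 shallow libraries were among the 4 lowest, and the part of depth in their level was not tested. Over the 12 libraries the SD of log2 CPM was 1.07 to 1.43 for Adipoq, Plin1, Lep, Cidec and Retn. For Fabp4, Pparg, Cfd and Lipe it was 0.172 to 0.36, so the former moved the level most. Of these, Plin1, Lep, Cidec and Retn had counts of 0 in some libraries.

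Sncg did not follow this level. Since genes with few counts moved the level much, this does not show whether Sncg followed the fat cells themselves. Over the 12 libraries Pearson's r was 0.11 and Spearman's rho was 0.15, given as a description since the genes were chosen with values in view and the libraries share their depth and composition. Within 1 week r was -0.495 (6 libraries), within 3 weeks 0.17 (6 libraries), and with group means removed it was 0.26. Without 3wk SBI + Lac replicates 2 and 3, the libraries farthest from the median fat cell level, r was 0.04. Among the libraries, 3wk SBI replicate 1 ranked 1st for Sncg and 10th for the fat cell level, and 3wk SBI + Lac replicate 2 ranked 8th for Sncg and 1st for the fat cell level. The former was shallow, with 0 counts of Lep, Cidec and Retn, and the part of depth in its rank was not tested.

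**Figure D4:**
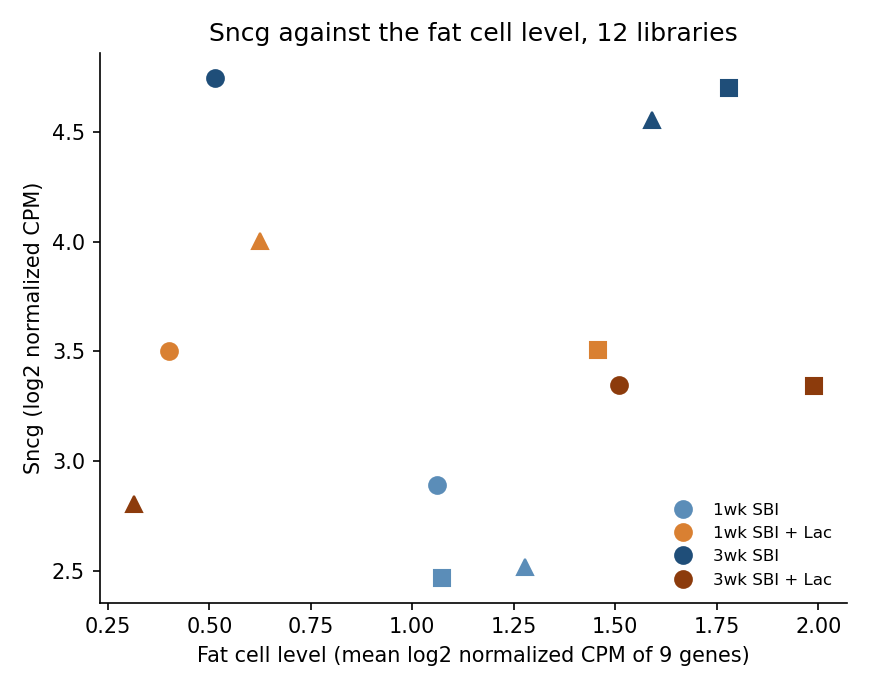
Log2 normalized CPM of Sncg (y axis) against the fat cell level, the mean log2 normalized CPM of 9 genes (x axis), in 12 libraries coloured by group, with circle, square and triangle for replicates 1, 2 and 3. The 3wk SBI libraries keep Sncg between 4.55 and 4.75 while their fat cell level runs from 0.51, in the shallow replicate 1, to 1.78.

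Within a group, the fat cell level could move with little movement of Sncg. In 3wk SBI it ran from 0.51, in the shallow replicate 1, to 1.78 while Sncg stayed within 4.55 to 4.75 on the log2 scale. In 1wk SBI + Lac, replicates 1 and 2 had a fat cell level of 0.40 and 1.46 and the same Sncg, 3.50 and 3.51. In 3wk SBI + Lac, by contrast, replicate 3 was lowest for both, with 0.31 and 2.80.

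Taken relative to the fat cell level, Sncg kept its group differences. At 1 week log2 Sncg minus the level was 1.49 ± 0.31 without lactation and 2.84 ± 0.70 with it, and at 3 weeks 3.37 ± 0.74 without and 1.89 ± 0.57 with it (SD over 3 libraries). Lactating minus non-lactating this came to 1.36 at 1 week and -1.48 at 3 weeks, close to the fold changes of Sncg itself. Without any 1 library it lay between 1.09 and 1.76 at 1 week and between -1.78 and -1.04 at 3 weeks.

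Gene by gene, r with Sncg over the 12 libraries was 0.45 for Lep, 0.43 for Plin1, 0.39 for Fabp4, 0.30 for Lipe, 0.24 for Adipoq, 0.05 for Cfd, -0.12 for Pparg, -0.23 for Retn and -0.46 for Cidec. The best placed of the tested genes, Plin1, was passed by 1284 other genes, or 8.8% of those tested. Within 1 week r of Adipoq with Sncg was -0.69 and within 3 weeks it was 0.44, so its sign depended on the time point. Within 3 weeks r with Sncg ran from -0.60 for Retn to 0.83 for Fabp4, which had 0.03 within 1 week. Within 1 week it ran from -0.76 for Pparg to 0.275 for Lipe. With group means removed it ran from -0.77 for Pparg to 0.59 for Plin1, and Fabp4 had -0.31. Among themselves Adipoq, Plin1, Cidec and Retn had r from 0.34 to 0.85 in 6 pairs, with Adipoq and Plin1 the closest, while the 6 pairs of Fabp4, Pparg, Cfd and Lipe ran from -0.42 to 0.59.

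The genes most like Sncg were sought among those with a symbol of the 12319 with a mean of at least 1 CPM. The 10 most alike were in none of the fat cell lists. They were Chst7 (r = 0.91), Toe1 (0.89), Peli1 (0.86), Anxa8 (0.85), Serpine2 (0.85), Sun1 (0.84), Car12 (0.84), Ltbp4 (0.84), Zfp157 (0.83) and Galnt17 (0.83), over 12 libraries. They were picked for moving with Sncg over these libraries, so their fold changes follow from that choice and are given without a test. The annexin Anxa8 averaged 0.353 CPM in 1wk SBI, 0.409 CPM in 1wk SBI + Lac, 6.98 CPM in 3wk SBI and 0.776 CPM in 3wk SBI + Lac, so its mean was over 1 CPM through 3wk SBI alone. Car12, a carbonic anhydrase, averaged 0.564, 1.04, 3.77 and 0.853 CPM in the same order of groups. Its mean too was over 1 CPM only through 3wk SBI. The log2 fold change with lactation at 3 weeks was -3.04 for Anxa8 and -2.06 for Car12. At 1 week Car12 had the highest value of the 10, 0.86 (SE 0.46).

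The fat cell level had other neighbours. Among the 10 genes most like it were Egfl8 (r = 0.88), Chchd2l3 (0.88), Pllp (0.86), Prx (0.85), Pmp22 (0.85), Mfsd13a (0.84), Iqce (0.84), Inpp5b (0.83) and Uqcc3 (0.83). Pllp, Prx and Pmp22 encode proteins of myelin or of the cells that make it. Over a list of 12 Schwann cell genes, all of which were tested, the mean log2 CPM had r of 0.83 and rho of 0.86 with the fat cell level, 0.41 within 1 week, 0.94 within 3 weeks and 0.87 with group means removed.

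**Figure D5:**
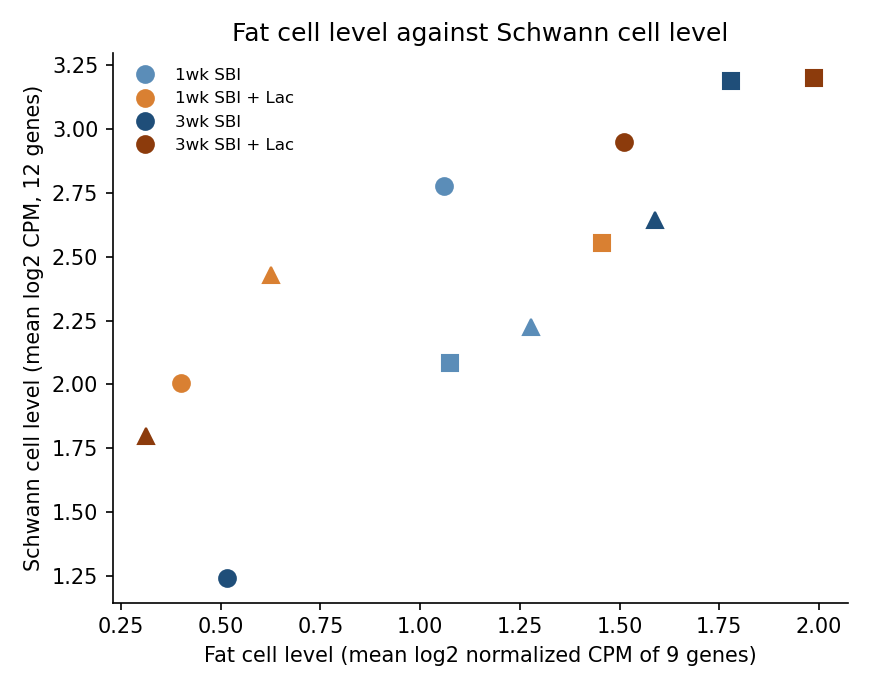
Mean log2 normalized CPM of 12 Schwann cell genes (y axis) against the fat cell level, the mean log2 normalized CPM of 9 genes (x axis), in 12 libraries coloured by group, with circle, square and triangle for replicates 1, 2 and 3. Both run low in 3wk SBI replicate 1 (1.24 and 0.51) and high in 3wk SBI + Lac replicate 2 (3.20 and 1.99).

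The summed level of the Schwann cell genes ran at 1 week from 142 to 185 CPM without lactation and from 140 to 188 CPM with it, and at 3 weeks from 118 to 307 and from 138 to 286 CPM, so its groups overlapped as those of the fat cell genes did. Of its 12 genes 0 were called in a lactation contrast, and Sncg had r of 0.05 with it. The part of nerve or of fat in the dissected pieces was not tested. Without the 2 shallow libraries r between the fat cell level and the Schwann cell level was 0.79, and r between Sncg and the fat cell level was 0.24.

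Nerve cells are among the other cells known to express Sncg. Of 12 peripheral neuron genes, 9 were tested, and their mean had r of -0.23 with Sncg over all libraries, -0.41 within 1 week and 0.51 within 3 weeks. Their summed level at 1 week was 14.3 to 17.3 CPM without lactation and 10.9 to 15.9 CPM with it, and at 3 weeks 11.6 to 17.0 and 8.56 to 15.6 CPM. Calca was at 0 throughout and Chat had at most 1 count. The gene Stmn2, a microtubule regulator of growing axons, was called lower with lactation at 3 weeks, from 6.05 ± 1.45 to 2.60 ± 0.96 CPM (log2 fold change -1.18, SE 0.29, edgeR adjusted p = 0.0426), and stood at -0.32 (adjusted p = 0.554) at 1 week. The list did not move in 1 direction. Of the 9 genes tested, 2 had log2 fold changes above 0 at 1 week and 4 at 3 weeks, with medians of -0.32 and -0.52.

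Smooth muscle genes had r of -0.25 with Sncg over all libraries, 0.76 within 1 week and -0.41 within 3 weeks, with 0 of 10 called. Their summed level at 1 week was 4713 to 5883 CPM without lactation and 6060 to 6211 CPM with it, higher in each lactating library, and at 3 weeks it overlapped, at 4238 to 5636 and 5497 to 6306 CPM. Endothelial genes had r of 0.02, 0.49 within 1 week and 0.23 within 3 weeks, with 0 of 11 called. The skeletal muscle fiber genes had r of 0.32 over all libraries, 0.62 within 1 week and -0.73 within 3 weeks; their summed level at 1 week was 95791 to 152101 CPM without lactation and 149650 to 178948 CPM with it, and at 3 weeks 142056 to 194277 and 209723 to 234856 CPM. Their log2 fold changes with lactation were above 0 for 12 of 12 genes at 1 week and 9 of 12 at 3 weeks, and 0 were called. The summed levels overlapped between lactating and non-lactating libraries at 1 week and were higher in each lactating library at 3 weeks, where Sncg was lower; their part in the values of Sncg was not tested.

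RNA of milk proteins was found in lactating libraries, and its part in the values of Sncg was not tested. Csn2, a casein, had 0 counts in all 6 non-lactating libraries, 0.262 to 1.29 CPM in the lactating ones of 1 week and 0 to 14.1 CPM in those of 3 weeks. Sncg had r of 0.003 with the 5 milk and mammary genes tested of 13 listed, 0.88 within 1 week and -0.43 within 3 weeks. In 3wk SBI + Lac the summed level of those genes was 33.0, 9.71 and 0.440 CPM in the 3 replicates, and Sncg was 10.1, 10.1 and 6.92 CPM. The 4 erythroid genes tested had r of -0.41 with Sncg over all libraries, 0.69 within 1 week and -0.61 within 3 weeks. At 1 week all 4 were higher in each lactating library, with a median log2 fold change of 1.26 and 0 called. Of all genes tested, 28.4% had groups without overlap at 1 week, in either direction. The summed level of the erythroid genes at 1 week was 242 to 414 CPM without lactation and 556 to 780 CPM with it. At 3 weeks it was 97.3 to 183 and 132 to 242 CPM. The part of blood and of smooth muscle in the values of Sncg was not tested.

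Of 25 other fat cell genes 18 were tested and 0 were called by edgeR in either lactation contrast or their difference, with median log2 fold changes of 0.11 at 1 week and 0.20 at 3 weeks. Their summed level at 1 week was 661 to 1073 CPM without lactation and 1039 to 1387 CPM with it. At 3 weeks it was 1019 to 1324 and 1490 to 1614 CPM, higher in each lactating library, where Sncg was lower. The mean log2 CPM of the same genes overlapped at 3 weeks. It was 2.65, 2.64 and 2.61 without lactation and 2.66, 2.87 and 2.32 with it. The 2 with the largest fold changes were Nnat, at 0.49 and -1.25 (adjusted p = 0.568 and 0.2), and Tshr, at -1.02 and -1.18 (0.191 and 0.131). The mean of the 18 genes had r of 0.61 with the fat cell level and 0.02 with Sncg. Of 7 brown fat genes listed 3 were tested and 0 were called. Their summed level at 1 week was 15.3 to 17.5 CPM without lactation and 14.0 to 22.5 CPM with it. At 3 weeks it was 13.5 to 18.9 and 14.8 to 20.4 CPM. Among those not tested, Ucp1 had at most 3 counts and Elovl3 had 0.

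Of 14 fat cell precursor and stromal genes, 1 was called, Cebpd, a transcription factor of early fat cell formation that many other cells express. At 3 weeks it stood at 12.6 ± 3.19 CPM without lactation and 25.5 ± 6.39 CPM with it (log2 fold change 1.04, SE 0.20, edgeR adjusted p = 0.0151). At 1 week it went from 7.31 ± 0.59 to 13.9 ± 1.78 CPM, with 0.93 (SE 0.19, adjusted p = 0.0474), short of the cutoff on the fold. Cebpd was thus higher with lactation at both time points, and the difference of its effects was not called. Most of the list stood the other way. Of the 14 genes, 5 had log2 fold changes above 0 at each time point, with medians of -0.12 at 1 week and -0.17 at 3 weeks. The medians over all genes were -0.004 and -0.02.

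Of 10 lipid synthesis genes, 1 was called, Scd, the desaturase that makes monounsaturated fatty acids. At 3 weeks it stood at 106 ± 46.6 CPM without lactation and 24.5 ± 5.17 CPM with it (log2 fold change -2.11, SE 0.38, edgeR adjusted p = 0.021), and at 560 ± 243 and 235 ± 18.9 CPM at 1 week (-1.25, SE 0.36, adjusted p = 0.109). Of 11 genes of lipid release and uptake 0 were called; Adrb1, a receptor for catecholamines, and Gpihbp1, which holds lipoprotein lipase on capillaries, had the largest fold changes, up to 1.46 and -0.69. The mean of the 10 lipid synthesis genes had r of -0.34 with Sncg over all libraries, -0.69 within 1 week and 0.89 within 3 weeks. Scd shared with Sncg the lower level at 3 weeks, but at 1 week its value was below 0 and that of Sncg above.

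Of the other members of the synuclein family, Sncb had at most 2 counts in a library and was not tested.

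The genes next to Sncg on chromosome 16 in RefSeq, among those tested, also did not share its pattern. Mmrn2, of the vessel wall, had log2 fold changes of 0.17 at 1 week and 0.06 at 3 weeks. Bmpr1a, a bone morphogenetic protein receptor, had -0.09 and 0.08, Glud1, glutamate dehydrogenase, had 0.24 and 0.17, Shld2, of DNA repair, had -0.27 and 0.25, and Ldb3, a protein of the muscle Z disc, had 0.58 and 0.16. The lowest edgeR adjusted p of these 5 genes in a lactation contrast was 0.128, for Ldb3 at 1 week.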

How the data were processed

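Stranded mRNA libraries of the pubocaudalis, 3 in each of 4 groups, were sequenced. The authors deposited a table of raw counts per gene, with whole counts in the 1-week columns and, for 3 weeks, expected counts with decimals (26.6% to 44% of values), neither normalized for library size. The submitters' processing notes name Salmon; its version, the build and the gene annotation were not given in the sources used here.

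The expected counts were rounded, although the design had assumed whole counts, and fitted with edgeR 4.0.16 in R 4.3.3: TMM, filterByExpr, a robust quasi-likelihood fit of all 12 libraries in 4 groups, and Benjamini-Hochberg adjustment over 14599 genes. Standard errors were the log2 fold change over the root of F. DESeq2 1.42.0 was an alternative. The script was tested on simulated data. The members, the 14 gene lists and the tests were chosen with earlier results of these data known. Named beside the members were, of each list, the called genes or else the 2 with the largest fold change, and the 10 genes most like Sncg and most like the fat cell level. The neighbours of Sncg, Sncb, Acta1, Ucp1, Elovl3, Calca and Chat were added to these; a few genes that the rule names are not reported here.

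List levels are means or sums over the genes tested, except that the fat cell level takes in Lep. Same-numbered replicates of different groups come from different rats, and their deviations from the group means correlated between -0.297 and 0.0226, so the numbers were not taken to pair libraries. Within groups, replicate pairs differed by far more than sampling noise (chi-square per degree of freedom 22.1 to 100.1). The p-values measure the spread between pools.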

Additional observations from a re-analysis of the deposited data

Results flagged for a closer look

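Sncg was the member whose lactation effect differed between the time points. The log2 fold change, lactating over non-lactating, was 1.06 at 1 week and -1.45 at 3 weeks, and the 3-week effect minus the 1-week effect was -2.51 (SE 0.25), past both cutoffs in the edgeR fit over all genes. The means were 6.17 and 12.9 CPM at 1 week and 25.4 and 9.05 CPM at 3 weeks, and the direction was shown by 3 of 3 lactating libraries at each time point. The gene was chosen with these values in view, so this is a description. Groups of 3 libraries were not searched for outlying samples.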

How the results depend on the processing

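The call of Sncg at 3 weeks, in the difference of the lactation effects and between non-lactating time points held under each alternative run. Sncg was chosen on these same counts, so this describes the dependence on settings and is no support for the calls. At 1 week 1 member was called, and 0 with the replicate number as a block, where Sncg had a log2 fold change of 1.07; without single libraries the count ran from 0 to 1 and the value from 0.87 to 1.21, with Sncg lost without 1wk SBI replicate 2 and without 1wk SBI + Lac replicates 1 or 3. The block changed no other call of a member. The replicate numbers do not pair the libraries, as their deviations did not go together. The r of Sncg with the fat cell level was 0.11; it was -0.495 over the libraries of 1 week alone and -0.05 to 0.34 without single libraries. No fat cell gene was called under any alternative, but of 609 recomputed fold changes 46 in 6 genes changed sign, the cause of which was not tested. These were, at 3 weeks, Plin1 with DESeq2 on all libraries (-0.019) or those compared (-0.028) and with the block (-0.15), and Pparg with DESeq2 (-0.0014) and with at least 10 counts in every library (-0.012); and in the difference Cfd with RLE (-0.00011) and upper-quartile factors (-0.0048). Without the 2 shallowest libraries, chosen after seeing the data, they were Adipoq (0.091) and Pparg (-0.059) at 3 weeks and Cfd in the difference (-0.042) and over time without (0.19) and with lactation (0.15). Without single libraries the values ran, at 1 week, from -0.037 to 0.22 for Fabp4, -1.86 to 0.36 for Retn and -0.87 to 0.26 for Plin1; at 3 weeks from -0.91 to 0.44 for Adipoq, -0.61 to 0.52 for Plin1, -0.083 to 0.17 for Pparg and -0.55 to 0.048 for Cfd; in the difference from -0.11 to 1.58 for Adipoq, -0.52 to 0.93 for Plin1 and -0.32 to 0.28 for Cfd; and over time from -0.47 to 0.74 for Retn and -0.31 to 0.19 for Cfd without lactation, and -0.35 to 0.15 for Cfd with it. Over all genes, edgeR called 37 at 1 week, 108 at 3 weeks and 1 in the difference, DESeq2 188, 242 and 11, and the block 8, 64 and 2; without single libraries the 1-week count ran from 2 to 235. Depth limits Lep, Retn, Cidec and Plin1, which had 0 to 10 counts in the 2 shallow libraries.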
